A study of Rattus norvegicus with 12 samples.

Results

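The genes described here are 9 interferon-stimulated genes of the rat, Irf7, Irf9, Stat2, Isg15, Usp18, Mx1, Mx2, Oas1a and Rsad2, as measured in the colon of rats exposed to neonatal maternal separation (NMS) with or without the probiotic VSL#3. They were chosen by name, as every non-control probe whose gene name in the array files is one of the 9. The rule found 10 probes, 2 for Usp18 and 1 for each other gene, among 30367 probes that carry 26514 different names. Group C consisted of 4 male Wistar rats (C1 to C4) that were handled normally and given placebo (100 µL saline). Group M consisted of 4 rats (M5 to M8) that were taken from their mothers for 180 min a day from day 2 to day 14 and given placebo. Group D consisted of 4 rats (D9 to D12) with the same separation that received VSL#3, a mixture of probiotic bacteria, in the same volume. Gavage ran from day 3 to day 60 in all groups, every rat had colorectal distension (CRD), and colon was collected at day 60. No healthy rat received VSL#3, and no separated rat in these groups was spared CRD.

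Interferons are cytokines that put cells into an antiviral state. Type I interferons bind the receptor formed by Ifnar1 and Ifnar2, the kinases Jak1 and Tyk2 activate Stat2, and Stat2 joins Irf9 in a complex that binds the interferon-stimulated response element (ISRE) of its target genes. Irf7 amplifies interferon production, Isg15 is a ubiquitin-like protein conjugated to other proteins, Usp18 removes it and restrains the receptor, and Mx, Oas and Rsad2 proteins interfere with viruses. In the intestine, resident microbes and viruses are known to sustain a basal activity of these genes.

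Each rat had 1 array of 1 colour, and a value is the log2 signal relative to the 75th percentile of its array, so that 0 is the level of that percentile. Spots well above background made up 75.5% to 77.5% of an array. The number of arrays limits the precision. Rat D12 was left out of the fits, as in the methods of the study, which used 11 arrays with D9 to D11, and its values are given apart. Groups C and M lay on slide 1 and Group D on slide 2, so slide and group cannot be told apart wherever Group D is compared. The arrays of D12 and M6 had the lowest mean correlation with the other arrays of their group, r = 0.967 and 0.977 against 0.983 to 0.992 for the others. Colonic epithelial markers (7 of 7), absorptive cell markers (5 of 5) and smooth muscle markers (6 of 6) were well above background on all 12 arrays, as in a sample of colon wall with its muscle. In such tissue, fewer cells of a type and less RNA per cell cannot be told apart.

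All 10 probes of the 9 genes were well above background on all 12 arrays, with 2 spots each and 0 saturated. A gene was called where limma gave a p value of 0.05 or less after Benjamini-Hochberg correction across the 30367 probes, together with a 2-fold difference. Of the 9 genes 0 were called in Group M vs Group C, where 0.168% of all probes were. The count was also 0 in Group D vs Group M, against 0.125% of all probes, and in Group D vs Group C it was 0, against 0.00659%. By the criterion of the study's methods, which asks for a 2-fold difference and for unadjusted p values of 0.05 or less in an analysis of variance followed by Tukey's comparison, 0 of 9 genes passed in each comparison. Of all probes, 2.33%, 2.65% and 0.366% did. At an unadjusted limma p of at most 0.05, 1 gene (Mx2) passed in Group M vs Group C, 3 (Mx2, Usp18 and Rsad2) in Group D vs Group M and 0 in Group D vs Group C, where 22.7%, 21.6% and 5.98% of all probes passed. The difference of the counts from these shares was not tested.

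**Figure D1:**
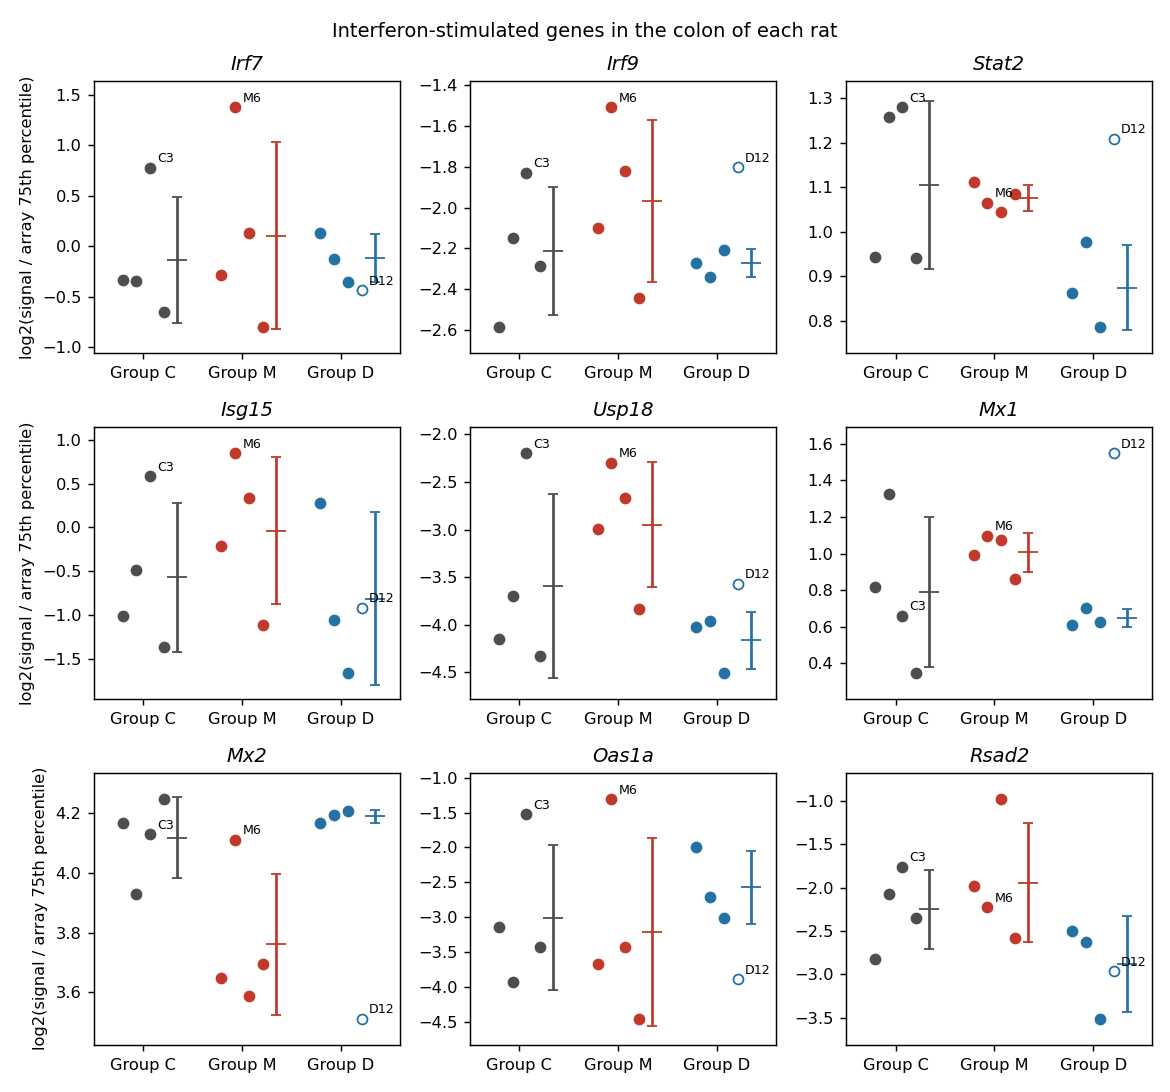
Log2 signal relative to the 75th percentile of the array (vertical axis, a scale of its own for each gene) of the 9 genes in each rat of Groups C, M and D (points; D12 is the open circle, outside the fits), with the mean and SD of the rats in the fits beside them. C3 and M6 lay above their groups at Irf7, Irf9, Isg15, Usp18 and Oas1a, and 9 of 9 genes overlapped between Groups C and M.

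Among the regulators, Irf7, the factor that amplifies interferon production, was read by this probe, on the minus strand of rn4 at chr1:201456889-201456948, one of the genes that varied most between rats:
Irf7 probe: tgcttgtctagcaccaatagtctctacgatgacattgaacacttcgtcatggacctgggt
Its log2 signal was -0.34, -0.34, 0.78 and -0.65 in C1 to C4, -0.29, 1.38, 0.13 and -0.80 in M5 to M8, and 0.13, -0.13 and -0.36 in D9 to D11, with -0.43 in D12. C3 and M6 stood above all other rats, and the 3 groups overlapped. The log2 difference was 0.24 (SE 0.44, adjusted p = 0.802 by limma) in Group M vs Group C and -0.22 (SE 0.48, adjusted p = 0.830) in Group D vs Group M. Without M6 these became -0.18 and 0.20, that is, each changed its sign.

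Irf9, the DNA-binding part of the complex with Stat2, was read at chr15:33744491-33744550 of rn4 on the plus strand. It had log2 signals of -2.58, -2.15, -1.83 and -2.29 in Group C, -2.10, -1.51, -1.82 and -2.44 in Group M, and -2.27, -2.34 and -2.21 in D9 to D11. C3 and M6 were again the highest of their groups, while D12 (-1.80) lay above the other rats of Group D. The log2 differences were 0.25 (SE 0.21) in Group M vs Group C and -0.30 (SE 0.22) in Group D vs Group M, with adjusted p values of 0.519 and 0.465 by limma. Stat2, which brings the activating part to that complex, was the steadiest of the genes, with 0.94, 1.26, 1.28 and 0.94 in Group C and 1.04 to 1.11 in Group M. In D9 to D11 it had 0.86, 0.98 and 0.79, and in D12 1.21. The 3 rats of Group D in the fit lay below all 4 rats of Group M, and D12 lay above them. The summed signal of enteric neuron and glia markers (6 of 6 measured) ran opposite, at 4.03 to 4.12 in D9 to D11 and 2.85 to 3.68 in Group M. It was 2.86 to 3.73 in Group C and 3.41 in D12. At an unadjusted limma p of at most 0.05, 4 of the 6 markers were higher and 1 was lower in Group D vs Group M. Of all probes 11.8% and 9.85% were. Over the 12 rats Stat2 correlated with the sum at r = -0.83, where its r with 15 marker lists ran from -0.83 to 0.56. The part of these cells in the values of Stat2 was not tested. The log2 difference of Group D from Group M was -0.20 (SE 0.11, adjusted p = 0.325 by limma), and -0.12 with D12 in the fit.

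Isg15 and Usp18, the conjugated protein and the protease that removes it, were read by these probes, shown because the Usp18 pair reads separate stretches of 1 transcript:
Isg15 probe: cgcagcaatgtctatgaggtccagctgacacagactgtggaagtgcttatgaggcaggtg
Usp18 probe: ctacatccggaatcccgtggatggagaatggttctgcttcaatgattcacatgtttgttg
Usp18 other probe: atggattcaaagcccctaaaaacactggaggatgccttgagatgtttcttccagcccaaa
The Isg15 probe lies on the minus strand at chr5:173034674-173034733 of rn4. The Usp18 probes lie on the minus strand of the unplaced part of chromosome 4 in rn4, the brighter from 1587472 to 1587531 and the other from 1588272 to 1588823. The 60 bases of the latter span 552 bases of the genome, so that its sequence is interrupted there.

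Isg15 had log2 signals of -1.01, -0.49, 0.59 and -1.37 in Group C, -0.21, 0.85, 0.34 and -1.12 in Group M, and 0.28, -1.06 and -1.66 in D9 to D11, with -0.92 in D12. The span of each group covered most of the span of the others. The mean was -0.57 ± 0.85 (SD, n = 4) in Group C, -0.04 ± 0.84 (SD, n = 4) in Group M and -0.81 ± 0.99 (SD, n = 3) in Group D. The log2 difference was 0.53 (SE 0.56, adjusted p = 0.614 by limma) in Group M vs Group C and -0.78 (SE 0.61, adjusted p = 0.494) in Group D vs Group M. With single rats left out the former ran from 0.24 (without M6) to 0.92 (without C3) and the latter from -1.32 (without D9) to -0.35 (without D11).

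Usp18 had log2 signals of -4.15, -3.70, -2.20 and -4.33 in Group C, -3.00, -2.30, -2.67 and -3.84 in Group M, and -4.03, -3.96 and -4.50 in D9 to D11, with -3.57 in D12. The rats D9 to D11 lay below all rats of Group M, D12 lay above M8, and C3 was the highest of all 12 rats. The log2 difference of Group D from Group M was -1.21 (SE 0.50, unadjusted p = 0.0358, adjusted p = 0.198 by limma), the largest among the 9 genes in any comparison. With D12 it was -1.06 (adjusted p = 0.390). The other probe gave -1.14 (adjusted p = 0.210), and its values followed those of the brighter probe across the 12 rats with r = 0.98. Group M vs Group C had a log2 difference of 0.64 (SE 0.46, adjusted p = 0.446). Without C3, Usp18 passed the criterion of the methods in Group M vs Group C and Group D vs Group M, with log2 differences of 1.11 and -1.21. The Tukey p values were 0.0487 and 0.0332. In that fit 441 and 681 of all probes passed in these comparisons. With any other single rat left out Usp18 did not pass.

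Among the effectors, Mx1, a GTPase that traps viral components, was read at chr11:37438580-37438639 of rn4 on the minus strand. Its log2 signals were 0.82, 1.33, 0.66 and 0.35 in Group C, 0.99, 1.1, 1.07 and 0.86 in Group M, and 0.61, 0.70 and 0.62 in D9 to D11, while D12 had 1.55, the highest of the 12 rats. The 3 rats of Group D in the fit lay below all 4 of Group M, and Group C spanned both. The log2 difference of Group D from Group M was -0.36 (SE 0.19, adjusted p = 0.302 by limma), and -0.13 with D12 in the fit. Its relative Mx2, read at chr11:37572657-37572716 on the plus strand, ran the other way. Mx2 had log2 signals of 4.17, 3.93, 4.13 and 4.25 in Group C, 3.65, 4.11, 3.59 and 3.70 in Group M, and 4.17, 4.19 and 4.21 in D9 to D11, with 3.51 in D12. M5, M7 and M8 lay below all rats of Group C, while M6 lay among them.

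The log2 difference of Mx2 was -0.36 (SE 0.13, 95% CI -0.64 to -0.08) in Group M vs Group C, 0.43 (SE 0.14, 95% CI 0.13 to 0.73) in Group D vs Group M and 0.07 (SE 0.14) in Group D vs Group C. The unadjusted p values of the first pair were 0.0167 and 0.00972, the lowest of the 9 genes, and the adjusted ones 0.143 and 0.127 by limma. Without M6 the differences were -0.47 and 0.55, with adjusted p values of 0.0172 and 0.0146, and with array weights the adjusted p values were 0.0072 and 0.00899. Both fits also raised the limma calls with a 2-fold difference over all probes, which were 51 and 38 in the main fit. They were 1778 and 1978 without M6, and 2106 and 2096 with array weights. Mx2 itself differed by less than 2-fold without M6 and with array weights as well. With D12 in the fit, the difference of Group D from Group M was 0.26 (adjusted p = 0.571).

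Over the 12 rats Mx2, Mx1 and Oas1a correlated with the summed B cell markers at r = -0.91, 0.72 and -0.77. With absorptive cell markers r was 0.80, -0.80 and 0.63. Over 15 marker lists r ran from -0.91 to 0.80 for Mx2, -0.80 to 0.76 for Mx1 and -0.78 to 0.63 for Oas1a. Mx2 is given in full because its p values were the lowest. The 5 rats with the highest summed signal of B cell markers (4 of 6 listed genes measured, 2 of them well above background on all arrays) were D12, M5, M8, C2 and M7, with 14.3, 8.77, 6.07, 5.78 and 4.84 times the 75th percentile. The other 7 rats had 0.12 to 0.642. The same 5 rats had the 5 lowest Mx2 signals, 3.51 to 3.93, against 4.11 to 4.25 in the other 7. T cell markers (6 of 6 measured, all well above background on every array) split the rats in the same way, at 2.97 to 9.34 against 0.651 to 1.2. So did natural killer cell markers (5 of 5 measured), at 0.552 to 1.09 against 0.427 to 0.536. The summed B cell signal was 0.223 to 5.78 in Group C (median 0.302), 0.281 to 8.77 in Group M (median 5.46) and 0.12 to 0.642 in D9 to D11 (median 0.509). Markers of absorptive colonocytes (5 of 5 measured) went with Mx2, at 54.7 to 88.9 in the same 5 rats and 95.5 to 158 in the other 7. The same 5 rats also had the 5 lowest Oas1a signals, -4.45 to -3.43, next to -3.42 in C4, while their Mx1 signals of 0.86 to 1.55 overlapped with the 0.35 to 1.1 of the other 7. Plasma cell markers (4 of 6 measured) summed to 19.2 to 62.3 in these 5 rats and 14.4 to 23.4 in the others, and neutrophil markers (4 of 5 measured) to 0.346 to 3.6 and 0.1 to 0.154. The part of these cell types in the values of Mx2, Mx1 and Oas1a was not tested.

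**Figure D2:**
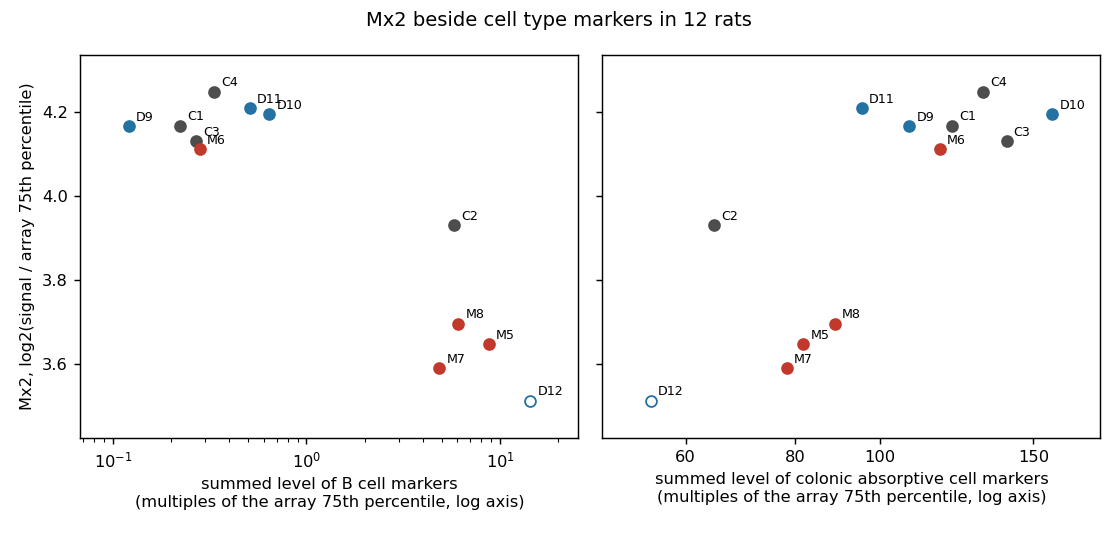
Log2 signal of Mx2 (vertical axis) against the summed signal of B cell markers (left) and of absorptive cell markers (right; horizontal log axes, multiples of the 75th percentile of the array) in the 12 rats (points, coloured by group; D12 open). C2, M5, M7, M8 and D12 combine Mx2 signals of 3.51 to 3.93 with B cell sums of 4.84 to 14.3.

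Oas1a, an enzyme that makes the second messenger of the antiviral RNase L, varied most of the 9 genes. It was read at chr12:36815068-36815127 of rn4 on the plus strand, with log2 signals of -3.14, -3.93, -1.52 and -3.42 in Group C, -3.68, -1.31, -3.43 and -4.45 in Group M, and -1.99, -2.71 and -3.02 in D9 to D11, with -3.89 in D12. C3 and M6 lay above D9, and these 3 rats above all others. The lowest and the highest rat, M8 and M6, were both in Group M and differed by 8.87-fold. The log2 difference was -0.21 (95% CI -1.72 to 1.3, adjusted p = 0.900 by limma) in Group M vs Group C and 0.64 (95% CI -0.99 to 2.28, adjusted p = 0.661) in Group D vs Group M. The former was -0.85 without M6 and 0.28 without C3, and the latter 1.28 without M6 and 0.23 without M8. Its signal correlated across the 12 rats with the probes of the related Oas1k (r = 0.99), Oas1i (0.94) and Oas1b (0.61), while Oas1d, Oas1e, Oas1f and Oas1h had -0.45 to -0.07. How far these probes read related genes is not known here.

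Rsad2, or viperin, which blocks viral replication, was read at chr6:44100787-44100846 of rn4 on the minus strand. Its log2 signals were -2.82, -2.07, -1.76 and -2.35 in Group C, -1.99, -2.23, -0.98 and -2.58 in Group M, and -2.50, -2.63 and -3.51 in D9 to D11, with -2.96 in D12. M7 was the highest of the 12 rats and D11 the lowest. The log2 difference of Group D from Group M was -0.94 (SE 0.39, unadjusted p = 0.0390, adjusted p = 0.206 by limma), and -0.62 without M7. In Group M vs Group C it was 0.31 (SE 0.37, adjusted p = 0.663), and -0.01 without M7.

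By direction, 6 of the 9 genes had a higher mean in Group M than in Group C, with a median log2 difference of 0.24 against -0.01 over all probes. The groups did not overlap at 0 of 9 genes, against 9.25% of all probes. The adjusted p values ranged from 0.143 to 0.913 by limma. In Group D vs Group M, 7 of 9 genes were lower, with a median of -0.30 against 0.02, and adjusted p values from 0.127 to 0.830. The groups did not overlap at 4 of the 9 genes there, with Stat2, Usp18 and Mx1 lower and Mx2 higher in D9 to D11, where 16% of all probes did not overlap. Of all probes 9.06% were higher and 6.89% lower without overlap. D12 lay within Group M at Usp18 and beyond it at Stat2, Mx1 and Mx2, so that with D12 the groups overlapped at each of the 4. In Group D vs Group C, 6 genes were lower with a median of -0.14 against 0.00 over all probes, and 0 of 9 did not overlap, against 7.6% of all probes. The lowest unadjusted p there was 0.0669, for Stat2 (log2 difference -0.23, adjusted p = 0.865 by limma).

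**Figure D3:**
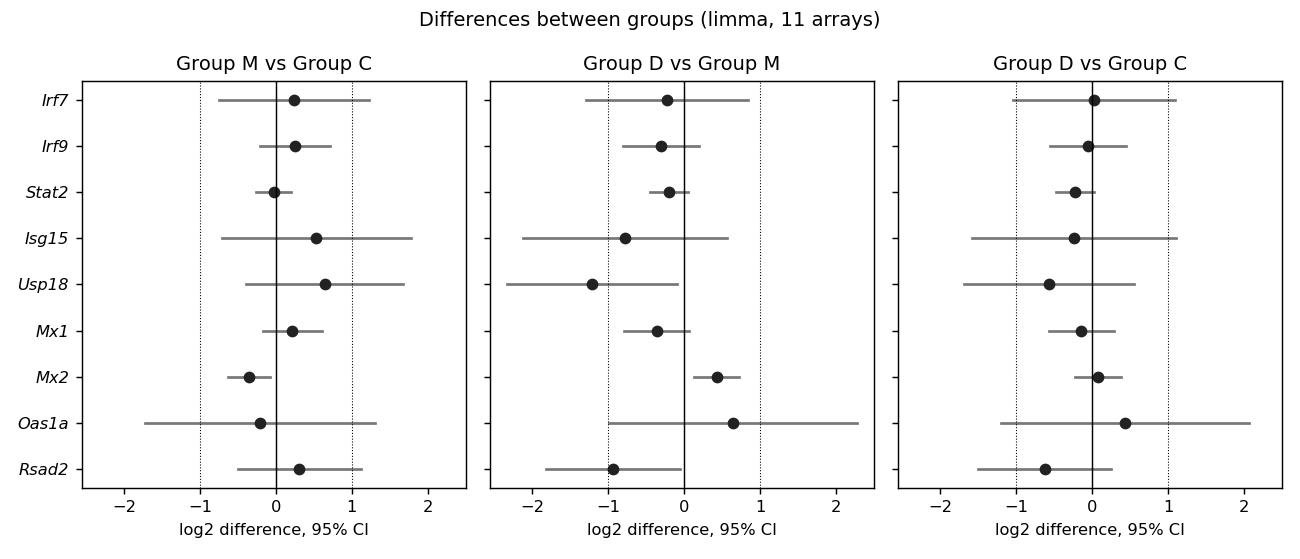
Log2 difference between groups (horizontal axis; limma, 11 arrays) with its 95% confidence interval for the 9 genes in the 3 comparisons; dotted lines mark a 2-fold difference. The intervals of Mx2 in Group M vs Group C and of Mx2, Usp18 and Rsad2 in Group D vs Group M exclude 0 before adjustment for the number of probes.

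The 95% intervals, before adjustment, give a range of differences and no firm upper limit. In Group D vs Group M they rest on D9 to D11, with slide and group not told apart. For Stat2 the far ends of the intervals reached 1.2-fold in Group M vs Group C and 1.37-fold in Group D vs Group M. For Isg15 they reached 3.44-fold and 4.36-fold, for Oas1a 3.3-fold and 4.84-fold, and for Usp18 3.19-fold and 5.02-fold.

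The spread between rats set most of these genes apart from each other. Within groups the SD of the log2 signal was 1.08 for Oas1a, 0.89 for Isg15, 0.73 for Usp18, 0.70 for Irf7 and 0.57 for Rsad2. The median was 0.21 over 20305 probes with signal well above background on every array. Only 0.704% of these probes varied more than Oas1a, 1.53% more than Isg15, 2.86% more than Usp18, 3.24% more than Irf7 and 5.55% more than Rsad2. Irf9 (0.31), Mx1 (0.26), Mx2 (0.17) and Stat2 (0.13) had common spreads, exceeded by 23.9%, 35%, 66.8% and 82.6% of the probes. Replicate spots of a probe on 1 array, which share RNA and hybridisation, had SDs of 0.03 to 0.16 for the 10 probes.

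Irf7, Isg15, Usp18 and Oas1a were highest in C3 within Group C and in M6 within Group M, while Rsad2 was highest in C3 and M7. C3 was the highest rat of Group C at 7 of the 9 genes and M6 the highest of Group M at 7, while D11 was the lowest of all 12 rats at 4. On the mean of the 9 genes, each centred and scaled to an SD of 1, M6 stood at 1.19, C3 at 1.02 and M7 at 0.47. D11 stood at -0.75, M8 at -0.66 and C4 at -0.58, so that each placebo group held a rat near each end. Over the 12 rats Irf7 correlated with Oas1a (r = 0.88), Isg15 (0.84), Usp18 (0.76), Irf9 (0.73) and Rsad2 (0.37), and Isg15 with Usp18 (0.86) and Rsad2 (0.70). Without C3 and M6, the 2 rats farthest from the median, Irf7 kept r = 0.70 with Oas1a and 0.74 with Isg15, but had 0.39 with Usp18 and 0.33 with Irf9. Isg15 then had 0.72 with Usp18 and 0.75 with Rsad2. Mx1 and Mx2 ran opposite to each other (r = -0.73, and -0.78 without C3 and M6). Mx1 had r = 0.07 with Irf7 and -0.32 with Oas1a. All points share the arrays and their scaling, and the correlations describe these 12 rats.

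**Figure D4:**
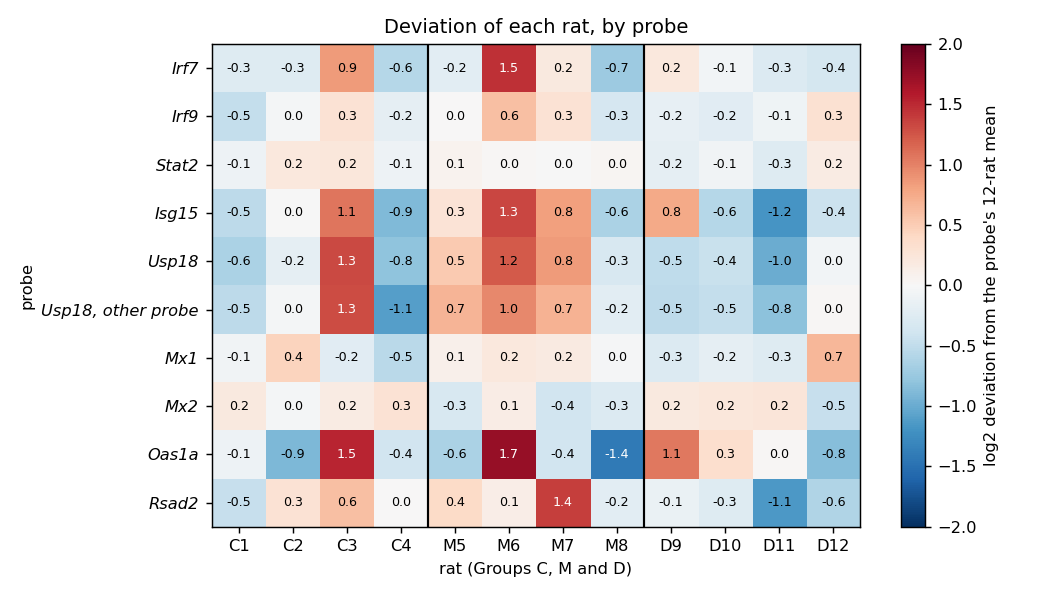
Log2 deviation of each rat (columns, Groups C, M and D from left to right) from the 12-rat mean of the probe (rows, with both Usp18 probes); red is above the mean and blue below. C3 and M6 are above the mean at Irf7, Irf9, Isg15, Usp18, Oas1a and Rsad2, while D11 is below it at Isg15, Usp18 and Rsad2.

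Among 13951 probes of other named genes well above background on all arrays, the 5 most like the mean of the 9 genes were those of Uba7 (r = 0.85), Oasl2 (0.83), Mitd1 (0.82), M6pr (0.81) and Oas1i (0.80), while 1.13% of the probes had an r above 0.5. Uba7 is the enzyme that activates Isg15 for conjugation, and Oasl2 and Oas1i belong to the family of Oas1a. Uba7 had its highest log2 signals in M6 (-0.96) and C3 (-1.41), against -1.71 to -2.62 in the other 10 rats. Oasl2 had -0.76 in M6, -0.99 in C3 and -1.01 in D9, against -1.82 to -2.51 in the others. Without C3 and M6, r lay between 0.44 and 0.68. None of them differed between groups by limma, with adjusted p values of at least 0.716.

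The sequences before the annotated starts were searched on both strands for the core of the ISRE, GAAA and GAAA separated by 2 bases, and for the STAT element GAS, TTC and GAA separated by 3 bases. RefSeq windows of GRCr8 with the 250 bases before the annotated start were at hand for 6 of the 9 genes, Irf7, Irf9, Stat2, Mx1, Oas1a and Rsad2. The ISRE core was present in 3 of the 6, Irf7, Oas1a and Rsad2, and in 3.41% of all 33469 windows of this length. These stretches are shown with the matches in capitals, on the strand of the gene, because the 3 genes are among those that varied most between rats:
Irf7: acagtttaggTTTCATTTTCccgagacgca
Oas1a: ctctcggGAAATGGAAACTGAAAatcttgt
Rsad2: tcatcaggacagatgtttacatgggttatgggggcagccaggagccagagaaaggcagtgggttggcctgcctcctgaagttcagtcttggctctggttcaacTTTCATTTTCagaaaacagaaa
The whole window of Irf7 and that of Irf9 lie inside the annotated span of the gene, as do 43 bases of the Oas1a window, 65 of Stat2, 93 of Mx1 and 125 of Rsad2, so these stretches need not be promoters. The Irf7 stretch lies at chr1:205800073-205800102 on the minus strand, that of Oas1a at chr12:41330418-41330447 on the plus strand and that of Rsad2 at chr6:48788246-48788370 on the minus strand. Irf7 and Rsad2 hold the same 10 bases, the core read on the other strand, starting 69 and 147 bases before the start. In Oas1a 2 overlapping matches begin 41 and 35 bases before it. A GAS match was present in 2 of the 6 genes, Irf9 and Oas1a, and in 7.67% of all windows:
Irf9: accacgtgatTTCTAGGAActgcacctccc
Oas1a, GAS: gtaacagcttTTCCCAGAAgaatctctgag
They lie at chr15:33065727-33065756 and chr12:41330257-41330286, both on the plus strand. The windows of Stat2 and Mx1 held neither of these letter patterns.

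Other genes of the interferon pathway were grouped into 7 lists with 135 names, of which 106 were measured and 88 were well above background on all arrays. By limma 0 of the 106 passed in each comparison. By the criterion of the methods 4 genes were higher and 1 was lower in Group M than in Group C, against 1.37% and 0.962% of all probes, and 0 were higher and 4 lower in Group D than in Group M, against 1.14% and 1.51%. The genes were Socs3, Slfn3, Irf4 and Oas1d (higher) and Tlr3 (lower) in Group M vs Group C, and Socs3, Slfn3, Irf4 and Gbp4 (lower) in Group D vs Group M. In Group D vs Group C, Ifi44l alone passed, with a lower mean in Group D, where 0.366% of all probes passed. Oas1d was well above background on 2 arrays and Gbp4 and Ifi44l on 9, so no fold is given for them.

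**Figure D5:**
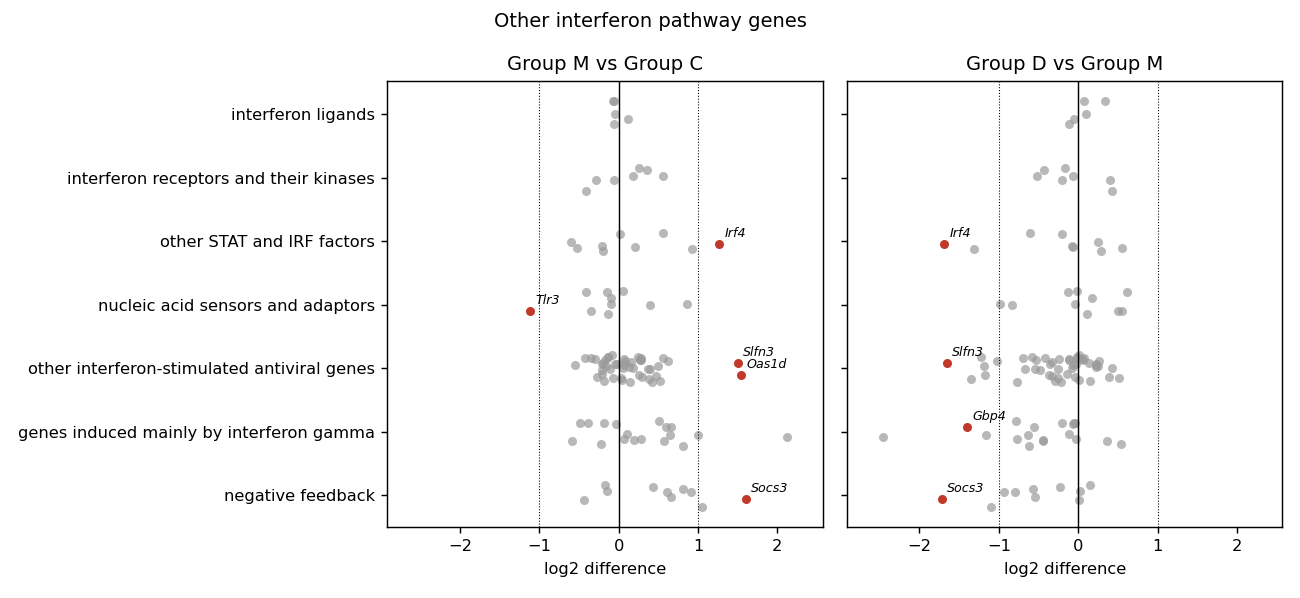
Log2 difference (horizontal axis) of 106 other genes of the interferon pathway in 7 lists (rows; points are genes, with vertical scatter for legibility) in Group M vs Group C and Group D vs Group M; red points with names passed the criterion of the methods and dotted lines mark a 2-fold difference. Negative feedback genes have a median of 0.64 in the left panel and -0.56 in the right one. Both panels share the rats of Group M, and D12 is in neither.

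The negative feedback list, whose genes damp cytokine signals, had the largest median log2 difference in Group M vs Group C, 0.64 over 10 genes. At an unadjusted limma p of at most 0.05, 6 of 10 were higher and 0 lower, where 9.86% and 12.9% of all probes were. The list, like the others, was chosen with earlier results of these data known. In Group D vs Group M, with D12 left out, 0 of the 10 genes were higher and 5 lower, against 11.8% and 9.85%. Over the 8 genes well above background on all arrays, the median deviation from the 12-rat mean was 0.45 in D12. It was -0.21 to -0.19 in D9 to D11, -0.09 to 0.54 in Group M and -0.53 to -0.05 in Group C. Socs3, an inhibitor of Jak kinases, had log2 signals of -3.78 on average in Group C, -2.18 in Group M and -3.89 in D9 to D11, with -1.08 in D12. It was 1.60 higher in Group M than in Group C (SE 0.36, adjusted p = 0.0924 by limma) and differed by -1.72 in Group D vs Group M (SE 0.39, adjusted p = 0.0835). Every rat of Group M lay above every rat of Group C and above D9 to D11. Socs2 and Cish, of the same family, were 0.91 and 0.81 higher in Group M than in Group C, with adjusted p values of 0.116 and 0.125.

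Among 47 other antiviral genes, 7 were higher and 3 lower at an unadjusted p of at most 0.05 in Group M vs Group C, and 3 were higher and 13 lower in Group D vs Group M, with medians of 0.07 and -0.14. The shares of all probes were 9.86% and 12.9%, and 11.8% and 9.85%. D12 was outside these counts. Over the 42 genes well above background on all arrays, the median deviation from the 12-rat mean was 0.05 in D12. It was -0.17 to -0.06 in D9 to D11 and -0.13 to 0.21 in Group M. Slfn3, a schlafen family gene, was 1.5 higher in Group M than in Group C (SE 0.38, adjusted p = 0.101 by limma) and differed by -1.65 in Group D vs Group M (adjusted p = 0.0927). Ifitm3, which blocks viral entry, had log2 signals of 1.03 to 1.46 in Group C, 1.47 to 2.03 in Group M and 0.81 to 1.33 in D9 to D11. It was 0.56 higher in Group M than in Group C (adjusted p = 0.110) and differed by -0.70 in Group D vs Group M (adjusted p = 0.0884). Ifit3 had a difference of 0.62 in Group M vs Group C (SE 0.52, adjusted p = 0.515).

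Of 18 genes induced mainly by interferon gamma, 5 were higher and 0 lower at an unadjusted p of at most 0.05 in Group M vs Group C, and 1 was higher and 6 lower in Group D vs Group M. Of all probes 9.86% and 12.9% were in the former and 11.8% and 9.85% in the latter. D12 was outside these counts. Over the 16 genes well above background on all arrays, its median deviation from the 12-rat mean was 0.36, the highest of the 12 rats. The deviation was -0.40 to -0.08 in D9 to D11, -0.13 to 0.24 in Group M and -0.34 to 0.10 in Group C. Ciita, the master switch of antigen presentation, Psmb9, a subunit of the immunoproteasome, and Wars, a tRNA synthetase, had log2 differences of 1.0, 0.82 and 0.65 in Group M vs Group C, with adjusted p values of 0.327, 0.111 and 0.128 by limma. Ciita stood at -0.05 in D12, against means of -2.97 in Group C, -1.97 in Group M and -3.14 in D9 to D11. Among the other STAT and IRF factors, Irf5 was 0.93 higher in Group M than in Group C (adjusted p = 0.246 by limma). Irf4, a factor of lymphocytes that was well above background on 10 arrays, was 1.26 higher (adjusted p = 0.0996). Stat3 differed by 0.55 in Group M vs Group C and by -0.61 in Group D vs Group M, with an adjusted p of 0.0809 in the latter.

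Of 10 sensors and adaptors of nucleic acids, 1 was higher and 3 lower at an unadjusted p of at most 0.05 in Group M vs Group C, against 9.86% and 12.9% of all probes. Between Groups D and M 2 were higher and 2 lower, against 11.8% and 9.85%. Tlr3, the receptor of double-stranded RNA, had means of -0.21 in Group C, -1.32 in Group M and -0.82 in D9 to D11, with -2.19 in D12. Its log2 difference in Group M vs Group C was -1.11 (adjusted p = 0.0868 by limma). Zbp1 and Ikbke, a sensor and a kinase of this pathway, differed by 0.86 and -0.41. Of 7 receptors and kinases, 3 were higher and 1 lower at an unadjusted p of at most 0.05 in Group M vs Group C. Of all probes 9.86% and 12.9% were. In Group D vs Group M 2 of the 7 were higher and 2 lower, against 11.8% and 9.85%. The log2 differences in Group M vs Group C were 0.56 for Jak2, 0.36 for Jak1 and -0.41 for Il10rb. Of 5 interferon genes measured, Ifna4 alone was well above background on all arrays, with means of -3.11, -3.17 and -3.10 in Groups C, M and D. The lymphocyte markers that were high in M5, M7, M8, C2 and D12 were low in M6. At an unadjusted p of at most 0.05, 4 of 6 macrophage, 4 of 5 mast cell and 3 of 4 plasma cell markers were higher in Group M than in Group C. So were 2 of 4 neutrophil and 2 of 7 epithelial markers, and 1 each of the goblet, smooth muscle, neuron and glia, and natural killer cell markers. Lower were 1 macrophage, 1 mast cell and 1 absorptive cell marker, and the other lists had 0. Of all probes 9.86% were higher and 12.9% lower. Between Groups D and M 4 of 6 macrophage and 2 of 4 B cell markers were lower and 4 of 5 absorptive cell markers higher in Group D. Of 6 neuron and glia markers 4 were higher and 1 lower there, and of 5 mast cell markers 2 were higher and 1 lower. Of the goblet, endothelial, plasma, dendritic and neutrophil markers 1 each was lower, and the other lists had 0. Of all probes 11.8% were higher and 9.85% lower in that comparison. The part of these cell types in the values of the lists was not tested.

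The count of these genes depended on the arrays in the fit. Without M6, and with D12 left out as before, 9 passed limma with a 2-fold difference in Group M vs Group C, 8 higher and 1 lower, while 1778 of all probes did. In Group D vs Group M 11 passed, all lower, while 1978 of all probes did. Socs3, Socs1, Slfn3, Irf4, Irf5 and Ido1 were among the genes in both. With D12 in the fit and M6 left out, 0 of the 106 passed in either comparison, while 138 and 59 of all probes did. With array weights and M6 kept, 11 passed in each, while 2106 and 2096 of all probes did. The 9 interferon-stimulated genes described above had 0 calls in each of these fits.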

How the data were processed

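Colon RNA of 12 rats was hybridised to an Agilent array of 1 colour (Cy3) each. The deposited intensity values are the processed signals of Agilent Feature Extraction 10.5.1.1, detrended and background-subtracted per array before the authors deposited them, per the file headers. The authors also deposited a table of log2 values of the same arrays, quantile normalized as its columns show, used here only as an alternative. From the intensities, control spots (4259 of 62976) and outlier spots were left out, each signal was divided by the 75th percentile of its array, log2 was taken and spots of a probe were averaged. A gene is shown by its brightest probe. Groups come from the sample labels, and each array is a separate rat. One model with 3 groups was fitted to 11 arrays, without D12 as in the study's methods, with limma 3.58.1 in R 4.3.3 (package data.table, version 1.17.8), over 30367 probes, of which 19 lacked a value on some array. Adjusted p values are Benjamini-Hochberg values over all probes. Tukey's test after ANOVA follows the study's methods and is not adjusted for the number of probes. Plots were drawn with matplotlib 3.10.9 in Python 3.11.15. The precision is limited by the number of arrays. Scripts were tested on simulated data. The genes and all lists were chosen with earlier results of these data known. From each pathway list the text names the 3 genes with the largest difference of Group M from Group C with signal well above background throughout, and each gene that passed a call; Socs1 and Ido1 were named after their values were seen. One gene that this rule names is not reported here. The 5 probes most like the 9 genes were taken by their correlation with the mean of the scaled genes. Probe positions are those of the array files on rn4, and promoter windows those of RefSeq on GRCr8; all 9 genes matched by symbol. Alternatives changed the scaling, background, filter, arrays, weights and replicates.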

Additional observations from a re-analysis of the deposited data

Results flagged for a closer look

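In Group D, rat D12 lay apart from the other 3 rats at both Mx genes. At Mx1 its log2 signal was 1.55 against 0.70 in the nearest rat, a gap of 0.903 of the range of the group, and at Mx2 it was 3.51 against 4.17 in the nearest rat, a gap of 0.939. Both exceed Dixon's critical value at the 95% level for 4 rats. This was so in 2 of 30 groups examined, and chance alone gives about 1 in 20. D12 also had the highest summed B and T cell marker signals of the 12 rats, 14.3 and 9.34, and their part in these values was not tested.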

How the results depend on the processing

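The 9 genes had 0 limma calls with a 2-fold difference in each comparison under every alternative run. With an unadjusted p of at most 0.05 alone the counts were 1 (Group M vs Group C) and 3 (Group D vs Group M). By the methods' criterion the count ranged from 0 to 1 in both comparisons when rats were left out in turn. The 1 gene was Usp18, without C3, where 441 and 681 of all probes passed. For the other pathway genes, Group M vs Group C gave 1 call with normexp, 11 with array weights and 0 to 9 with rats left out, with 9 without M6. Over all probes the calls were 62 with normexp, 2106 with array weights and 1778 without M6. Group D vs Group M gave 1 with the filter on dim probes, 11 with array weights and 0 to 11 with rats left out, with 1 without C4 and 11 without M6. The filter left 160 calls over all probes, array weights gave 2096, and the fits without C4 and M6 gave 10 and 1978. With D12 in the fit and M6 left out, both comparisons gave 0, against 138 and 59 over all probes. A shift to array medians moved the median of all probes in Group D vs Group M to 0.11.

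Small differences changed sign. In Group M vs Group C, array weights gave -0.35 for Irf7, 0.024 for Stat2 and -0.080 for Isg15, normexp gave 0.0097 for Stat2, and all 12 arrays without M6 gave -0.18 for Irf7. For Group D vs Group M, Irf7 had 0.40 with array weights and 0.12 with 12 arrays without M6, and Irf9 had 0.013 with array weights. For Group D vs Group C, 12 arrays, with or without M6, gave -0.060 for Irf7, 0.058 for Irf9, 0.083 for Mx1 and -0.098 for Mx2, and array weights gave 0.044 for Irf9. With rats left out, Group M vs Group C ranged from -0.18 to 0.55 for Irf7, -0.083 to 0.030 for Stat2, -0.85 to 0.28 for Oas1a and -0.011 to 0.52 for Rsad2. Irf7 ranged from -0.52 to 0.20 in Group D vs Group M. Group D vs Group C ranged from -0.15 to 0.32 for Irf7, -0.18 to 0.069 for Irf9, -0.79 to 0.18 for Isg15 and -0.29 to 0.038 for Mx1. The cause was not tested.

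The replicate block gave -0.22 for Irf7 in Group D vs Group C and changed no call. Samples with the same number did not deviate together (10 pairs, r from -0.72 to 0.18), so the numbers were not taken as pairs. The slide as a block was not run, since Groups C and M shared 1 slide and Group D lay alone on the other.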
